A study of Rattus norvegicus with 12 samples.

Results

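The genes described here encode the aminoacyl-tRNA synthetases, the enzymes that join each amino acid to its transfer RNA (tRNA). They were taken by symbol from the count table, as every name built from an amino acid letter and "ars" with or without a final 1 or 2, together with Eprs1, Farsa and Farsb. All 37 such genes passed the filter of CPM (counts scaled to the size of the library) above 1 in at least 2 of the 12 libraries, and they stand among 14324 genes kept of 34034 symbols in the table. The lowest count of any of them in any library was 63. Symbols ending in 2 form the mitochondrial class (17 genes) and all others the cytosolic class (20 genes). Gars1 and Kars1 were counted as cytosolic, although each supplies its enzyme to both compartments.

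The cells were INS-1E, a rat insulinoma β-cell line of wild-type genotype, cultured as 4 groups with 3 biological replicate libraries each. One group was untreated. The IL-1βlow group received interleukin-1β at 10 pg/ml for 72 h, with fresh cytokine added every day and the medium left in place. The CYT group was challenged for 16 h with interleukin-1β at 100 pg/ml and interferon-γ at 5 ng/ml. The IL-1βlow + CYT group received the low-dose regimen, a change of medium and then the same challenge. INS-1E cells are an established tumour line that divides in culture, so they stand for β-cells only in part. Interleukin-1β and interferon-γ are commonly used to model immune damage to β-cells, and the comparisons ask how that challenge, with or without low-dose interleukin-1β beforehand, moved the synthetase genes.

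A synthetase recognises its amino acid and the matching tRNAs and couples them at the cost of ATP, and the charged tRNA then carries the amino acid to the ribosome. Cytosolic and mitochondrial ribosomes use separate tRNAs, and for most amino acids separate nuclear genes encode the enzyme of each compartment. Several cytosolic synthetases sit with scaffold proteins in a multisynthetase complex. When cells run short of amino acids or their endoplasmic reticulum is under stress, the kinases that phosphorylate eIF2α raise translation of the transcription factor ATF4, and cytosolic synthetase genes are textbook members of the programme it drives. Wars1, the cytosolic tryptophanyl-tRNA synthetase, is also known as an interferon-γ response gene.

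Total counts were 15812640 to 20246806 per library. Every library held the β-cell transcripts Ins1 (6624 to 25763 CPM) and Ins2 (1269 to 9089 CPM), and the more general endocrine transcript Chga (3299 to 11001 CPM). Acinar Cpa1 and Prss1 and the leukocyte gene Ptprc were at 0 in all 12 libraries. A further acinar gene, Cela1, reached 0.117 CPM, and the leukocyte marker Cd68 passed the filter at 0.296 to 1.20 CPM. The α-cell hormone gene Gcg was present at 24.2 to 367 CPM. Of the fibroblast markers, Pdgfra was at 5.19 to 16.0 CPM and Col1a1, which did not pass the filter, at 0.118 to 0.652 CPM. The part of cells of other types in the results below was not tested. The ribosomal RNA gene Rn45s took 6.89 to 11.1% of counts.

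The summed expression of the cytosolic synthetases was higher with CYT than in any other group, and that of the mitochondrial class moved less. Summed over the 20 cytosolic genes, expression was 2534 ± 107 CPM (SD, n = 3) in untreated cells, 2660 ± 24.6 CPM with IL-1βlow, 5534 ± 371 CPM with CYT and 2684 ± 101 CPM with IL-1βlow + CYT. The 3 CYT libraries (5150, 5892 and 5559 CPM) lay above all 9 others, whose highest sum was 2790 CPM. Over the 17 mitochondrial genes the sums were 311 ± 11.6, 318 ± 8.20, 390 ± 10.3 and 324 ± 3.36 CPM in the same order, and the CYT libraries (386, 402 and 383 CPM) were again the highest. The ratio of the cytosolic to the mitochondrial sum was 8.15 ± 0.538 in untreated cells, 8.36 ± 0.292 with IL-1βlow, 14.2 ± 0.718 with CYT and 8.27 ± 0.380 with IL-1βlow + CYT. CPM is not scaled to transcript length, so the change of this ratio between groups can be read and its size cannot. In bulk RNA, a change in the level per cell and a change in which cells are present cannot be told apart. No test was run on these sums.

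**Figure D1:**
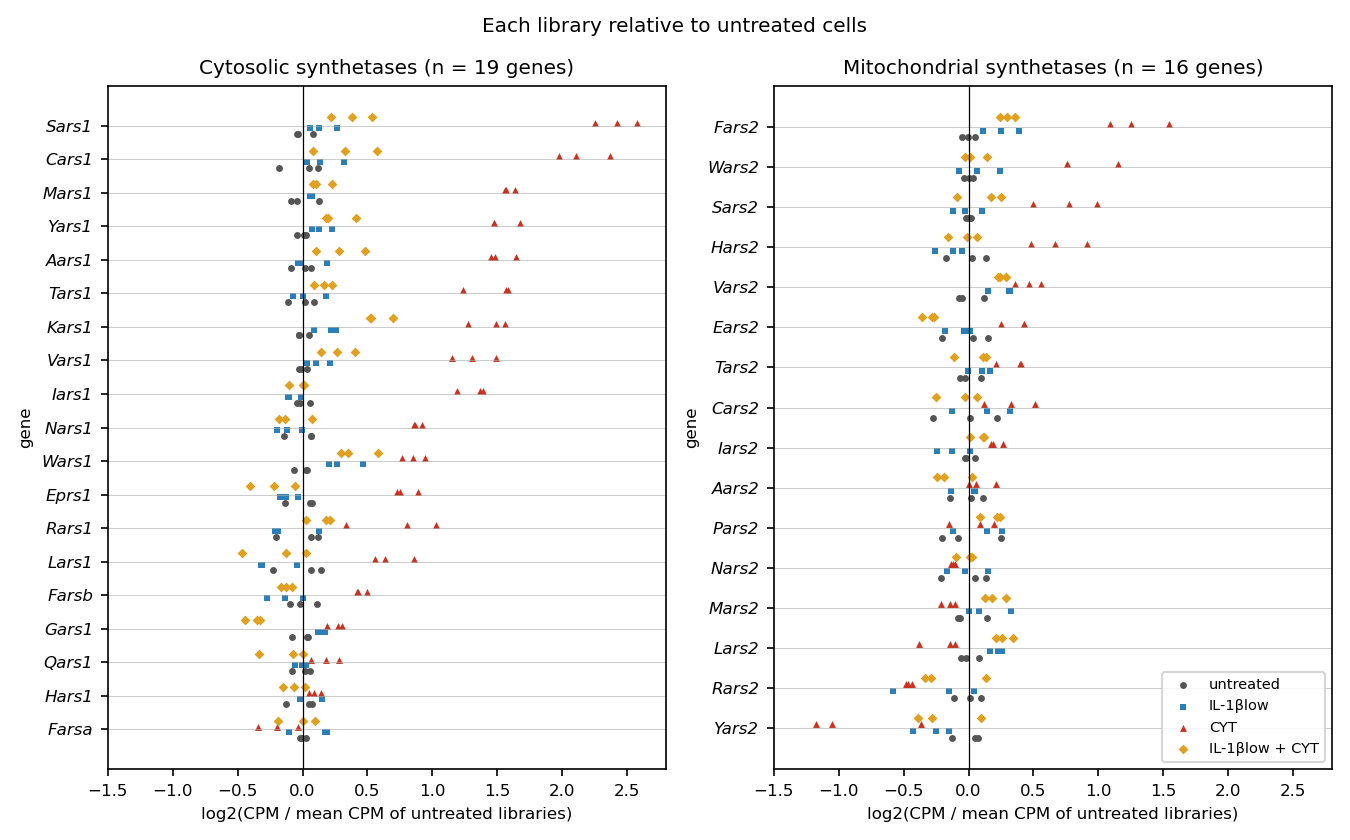
Level of each named synthetase gene (19 cytosolic and 16 mitochondrial) in each of the 12 libraries, as log2 of CPM over the mean CPM of the 3 untreated libraries (x axis), with cytosolic genes on the left and mitochondrial genes on the right. For Sars1, Cars1, Mars1, Yars1, Aars1, Tars1, Kars1, Vars1 and Iars1 the 3 CYT libraries (triangles) stand apart from the 9 others, while among mitochondrial genes Fars2 moves the most and Yars2 and Rars2 lie below 0 with CYT.

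With CYT, 9 of the 20 cytosolic synthetases were higher than in untreated cells by the study's thresholds, and 0 were lower. Those thresholds ask for a log2 fold change of more than 1 in either direction and an adjusted p below 0.01, here from the quasi-likelihood test of edgeR, adjusted after Benjamini and Hochberg across 14324 genes. Among all genes tested, 10% were called higher and 11.6% lower. The median log2 fold change of the 20 genes was 0.87, against -0.04 over all genes. In the mitochondrial class 1 of 17 genes was called, Fars2, and the class median was 0.21. With glmTreat, an edgeR test against the minimum fold change itself, 9 cytosolic and 0 mitochondrial genes were called. With an adjusted p under 0.05 and no minimum fold change, a rule that called 30.6% of all genes higher and 31.7% lower, 16 cytosolic genes rose and 0 fell, and 6 mitochondrial genes rose and 2 fell. The 3 CYT libraries did not overlap the untreated ones for 18 of the 20 cytosolic genes (17 of them higher) and 12 of the 17 mitochondrial genes (8 of them higher), where 34% of all genes lay apart as higher and 35.3% as lower.

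Sars1, which encodes seryl-tRNA synthetase and charges both serine and selenocysteine tRNA, changed the most. Its level was 149, 148 and 161 CPM in untreated cells, 167, 184 and 159 CPM with IL-1βlow, 731, 913 and 821 CPM with CYT, and 178, 221 and 199 CPM with IL-1βlow + CYT. Every CYT library exceeded every library of the other groups by more than the range within any group. The fitted log2 fold change with CYT was 2.43 ± 0.106 (SE), 5.37-fold, with an adjusted p of 2.12e-10. Cars1, the cysteinyl-tRNA synthetase gene, came next, with 42.0, 51.6 and 49.2 CPM untreated, 48.8, 59.6 and 52.3 CPM with IL-1βlow, 187, 245 and 205 CPM with CYT, and 50.5, 71.0 and 59.9 CPM with both. It rose 4.46-fold with CYT (log2 2.16 ± 0.138, adjusted p = 8.73e-09), and the other groups overlapped each other.

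Mars1 encodes methionyl-tRNA synthetase, which charges the tRNA that starts every cytosolic protein as well as the elongator. Its libraries read 114, 110 and 128 CPM untreated, 122, 123 and 121 CPM with IL-1βlow, 347, 365 and 346 CPM with CYT, and 124, 126 and 137 CPM with IL-1βlow + CYT. Mars1 rose 3.01-fold with CYT (log2 1.59 ± 0.0777, adjusted p = 6.04e-10). Its CYT libraries were close together and far above the 9 others. In the rat annotation GRCr8 (RefSeq) Mars1 overlaps Ddit3, the gene for the stress transcription factor CHOP, whose own level was 12.1, 12.3 and 14.7 CPM untreated and 265, 319 and 314 CPM with CYT. Whether the counting used strand is not given in the sources used here, and the part of Ddit3 reads in the Mars1 counts was not tested. Leaving Mars1 out, the median of the other 19 cytosolic genes was 0.86.

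Yars1 (tyrosyl-tRNA synthetase) stood at 144, 150 and 151 CPM untreated, 162, 174 and 156 CPM with IL-1βlow, 412, 475 and 412 CPM with CYT, and 169, 197 and 170 CPM with IL-1βlow + CYT. Aars1 (alanyl-tRNA synthetase) stood at 124, 138 and 134 CPM, 129, 150 and 131 CPM, 362, 414 and 369 CPM, and 142, 185 and 160 CPM in the same order of groups. For both genes the CYT libraries formed a separate high set, and the 3 other groups lay close together. Fitted rises were 2.92-fold for Yars1 (log2 1.55 ± 0.0877, adjusted p = 2.70e-09) and 2.89-fold for Aars1 (log2 1.53 ± 0.103, adjusted p = 1.56e-08). In GRCr8 Yars1 overlaps S100pbp and Aars1 overlaps Ddx19b, and whether reads of those genes entered their counts was not tested. Overlap with another gene was found for 15 of the 37 synthetases, 8 cytosolic and 7 mitochondrial. Sars1, Cars1 and Iars1, which were also called with CYT, were among them, and the part of their neighbours' reads was not tested either.

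Tars1, the threonyl-tRNA synthetase gene, was at 93.3, 107 and 102 CPM untreated, 95.7, 101 and 114 CPM with IL-1βlow, 237, 298 and 302 CPM with CYT, and 107, 113 and 118 CPM with IL-1βlow + CYT. Vars1 (valyl-tRNA synthetase) was at 186, 184 and 192 CPM, 202, 217 and 192 CPM, 417, 527 and 463 CPM, and 226, 248 and 207 CPM. Iars1 (isoleucyl-tRNA synthetase) was at 81.6, 82.9 and 87.2 CPM, 77.4, 77.9 and 83.3 CPM, 191, 220 and 216 CPM, and 77.8, 84.3 and 84.0 CPM. Each of these genes more than doubled with CYT and showed no such level in any other group. The log2 fold changes with CYT were 1.47 ± 0.104 for Tars1, 1.32 ± 0.0966 for Vars1 and 1.32 ± 0.0786 for Iars1, with adjusted p of 2.38e-08, 3.58e-08 and 4.46e-09.

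Kars1 and Gars1 charge lysine and glycine tRNAs in both compartments, and their patterns differed from each other. Kars1 was at 85.8, 85.8 and 90.4 CPM untreated, 104, 102 and 92.8 CPM with IL-1βlow, 211, 257 and 246 CPM with CYT, and 126, 142 and 125 CPM with IL-1βlow + CYT. Its IL-1βlow + CYT libraries lay between the CYT libraries and the rest without touching either. Gars1 was at 395, 430 and 426 CPM untreated, 452, 454 and 469 CPM with IL-1βlow, 503, 514 and 476 CPM with CYT, and 326, 331 and 307 CPM with IL-1βlow + CYT. Here the pretreated and challenged cells held the lowest libraries of all. With CYT, Kars1 rose by a log2 of 1.45 ± 0.0901 (adjusted p = 6.89e-09) and Gars1 by 0.25 ± 0.0711 (adjusted p = 6.32e-03). Relative to untreated cells, IL-1βlow + CYT left Kars1 higher by a log2 of 0.59 ± 0.0892 (adjusted p = 2.06e-04) and Gars1 lower, at -0.37 ± 0.0712 (adjusted p = 1.35e-03).

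**Figure D2:**
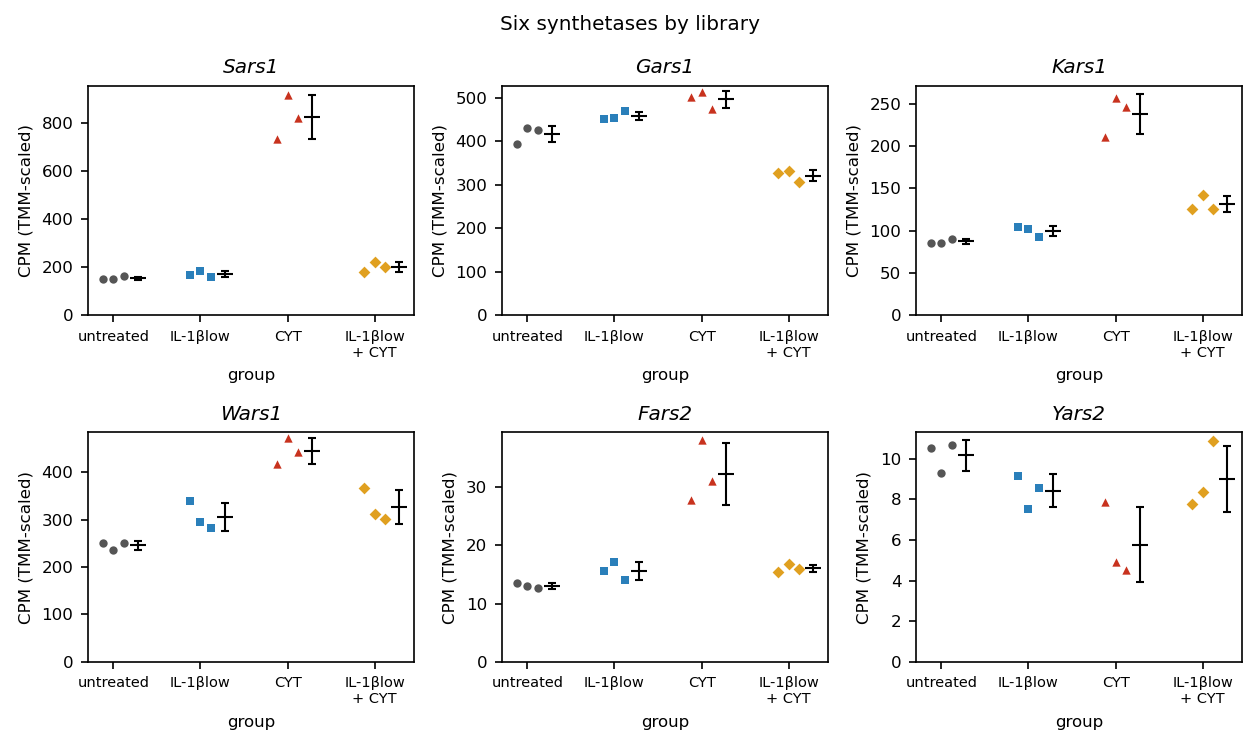
CPM (scaled by TMM library factors) of Sars1, Gars1, Kars1, Wars1, Fars2 and Yars2 in each library by group, with the mean and SD of the 3 libraries as a bar beside the points and each y axis starting at 0. Sars1 is high in CYT libraries alone (731 to 913 CPM), Kars1 keeps an intermediate level in IL-1βlow + CYT cells, Gars1 is lowest there, and Yars2 is lowest with CYT.

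The other 7 cytosolic genes that rose with CYT at an adjusted p under 0.05 did so by less than the threshold of 1, with log2 fold changes of 0.88 for Nars1 (asparaginyl), 0.86 for Wars1 (tryptophanyl), 0.79 for Eprs1 (the joined glutamyl- and prolyl-tRNA synthetase), 0.75 for Rars1 (arginyl), 0.69 for Lars1 (leucyl), 0.45 for Farsb (the β subunit of phenylalanyl-tRNA synthetase) and 0.25 for Gars1. Farsa, the α subunit of the same enzyme, had a log2 fold change of -0.19 ± 0.11 (adjusted p = 0.152). Qars1 (glutaminyl) at 0.18 and Hars1 (histidyl) at 0.09 did not pass either. The class therefore ran from no detected change to a 5.37-fold rise.

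Wars1 was singled out for its known response to interferon-γ. It was at 250, 235 and 251 CPM untreated, 339, 296 and 283 CPM with IL-1βlow, 417, 472 and 443 CPM with CYT, and 368, 313 and 301 CPM with IL-1βlow + CYT. The IL-1βlow libraries all lay above the untreated ones and the CYT libraries above all others. Its log2 fold change with CYT was 0.86 ± 0.0947 (adjusted p = 2.61e-06), near the median of the class. Of 14 interferon-γ response genes, 12 were called higher with CYT, beside 10% of all genes, with a median of 3.32 on the log2 scale, from Socs1 at 0.38 (adjusted p = 0.134) to Ciita at 8.17, with Irf1 at 2.96.

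Among mitochondrial genes Fars2, whose enzyme charges phenylalanine tRNA as a lone polypeptide, was at 13.5, 13.0 and 12.6 CPM untreated, 15.5, 17.1 and 14.1 CPM with IL-1βlow, 27.7, 38.1 and 31.1 CPM with CYT, and 15.4, 16.7 and 16.0 CPM with IL-1βlow + CYT. It rose 2.47-fold with CYT (log2 1.31 ± 0.128, adjusted p = 7.50e-07), with all CYT libraries above all others. Smaller rises at an adjusted p under 0.05 were found for Wars2 (log2 0.90), Sars2 (0.77), Hars2 (0.70), Vars2 (0.46) and Tars2 (0.34), the mitochondrial enzymes for tryptophan, serine, histidine, valine and threonine. Wars2 was at 16.9, 16.1 and 16.6 CPM untreated and 28, 28 and 36.7 CPM with CYT. Without CYT replicate 1 its log2 fold change was 1.01 and passed the thresholds.

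Yars2 and Rars2, which charge mitochondrial tyrosine and arginine tRNAs, fell. Yars2 was at 10.5, 9.29 and 10.7 CPM untreated, 9.18, 7.54 and 8.58 CPM with IL-1βlow, 7.88, 4.90 and 4.50 CPM with CYT, and 7.78, 8.35 and 10.9 CPM with IL-1βlow + CYT. Replicate 1 of the CYT group stood nearer to the IL-1βlow libraries than to the other CYT libraries. The log2 fold change of Yars2 was -0.82 ± 0.203 (adjusted p = 2.83e-03), and -1.08 without that library, which passed the thresholds. Rars2 had 22.9, 19.8 and 21.6 CPM untreated and 15.8, 15.4 and 15.5 CPM with CYT (log2 -0.46 ± 0.158, adjusted p = 0.0206), and in GRCr8 it overlaps Orc3 and Slc35a1. The Rars2 change missed an adjusted p of 0.05 without untreated replicate 1 (-0.40) and without CYT replicate 1, 2 or 3 (-0.44, -0.45 and -0.43). Of the 9 mitochondrial genes that did not pass, those named here had log2 fold changes from -0.20 (Lars2) to 0.37 (Ears2, glutamyl, adjusted p = 0.052), namely Lars2, Mars2, Nars2, Pars2, Aars2, Iars2, Cars2 and Ears2. Pars2 is the mitochondrial prolyl enzyme, whose cytosolic counterpart is part of Eprs1.

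**Figure D3:**
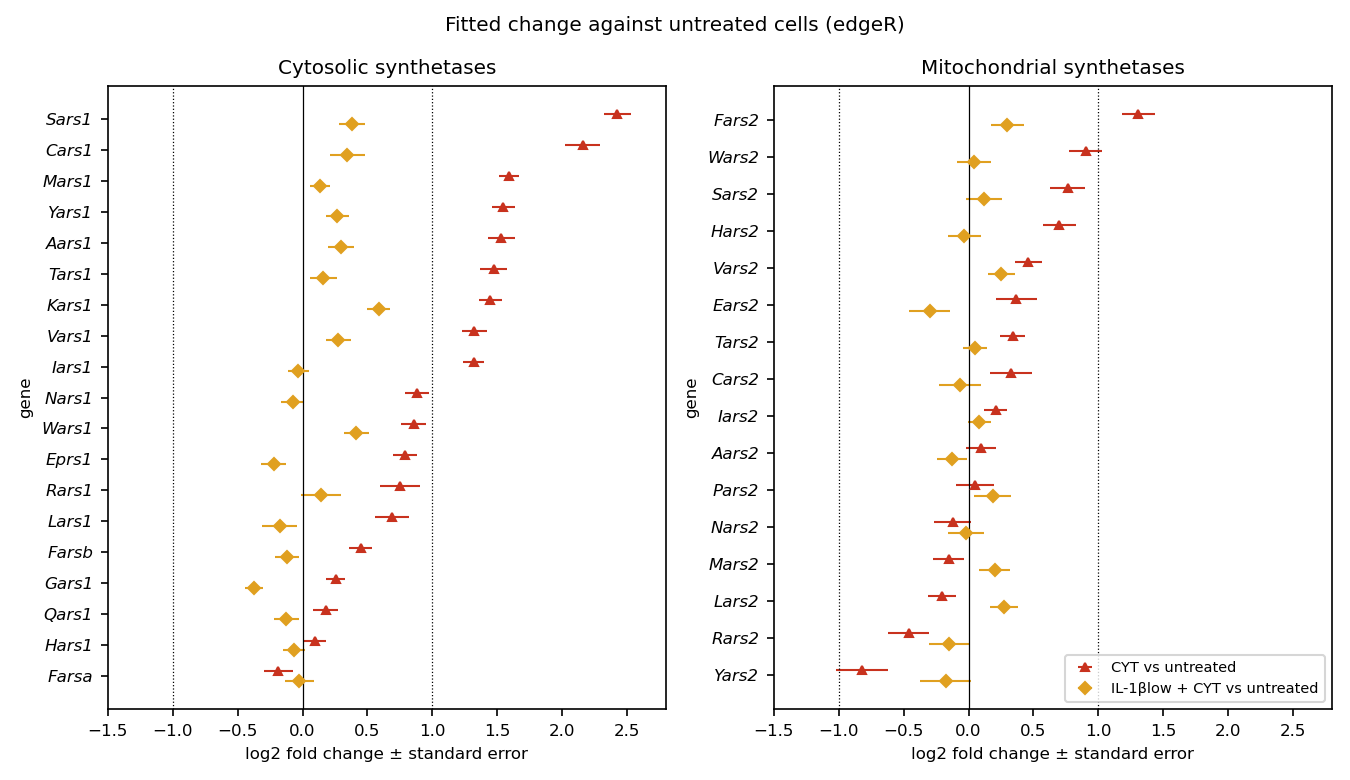
Fitted log2 fold change against untreated cells with its standard error (edgeR, 3 libraries per group) for CYT (triangles) and IL-1βlow + CYT (diamonds), with dotted lines at the threshold of 1 on either side of 0. With CYT, 9 cytosolic genes and Fars2 lie above 1, and with IL-1βlow + CYT every gene shown lies between -0.37 and 0.59.

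For 13 amino acids a cytosolic and a mitochondrial gene were compared within each library. The log2 ratio of cytosolic to mitochondrial CPM was higher in all 3 CYT libraries than in all 3 untreated ones for 11 of the 13 pairs. Of all single genes, 34% lay apart as higher and 35.3% as lower, and no such share was computed for ratios. These ratios restate the values of the single genes above and are not a further result. The ratio rose by 2.41 for tyrosine, where Yars1 rose and Yars2 fell, by 1.82 for cysteine, 1.74 for methionine and 1.67 for serine. The ratio for tryptophan moved by -0.03, and its libraries overlapped.

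Histidine was the reverse case. Hars1 was at 100, 114 and 113 CPM untreated, 108, 121 and 108 CPM with IL-1βlow, 116, 121 and 113 CPM with CYT, and 98.1, 110 and 104 CPM with IL-1βlow + CYT. Hars2 was at 21.0, 24.1 and 26.0 CPM, 21.8, 19.8 and 22.9 CPM, 33.1, 37.6 and 44.5 CPM, and 23.5, 21.2 and 24.8 CPM. The cytosolic gene overlapped between untreated and CYT cells and the mitochondrial gene did not. Hars2 rose by a log2 of 0.70 ± 0.126 (adjusted p = 2.50e-04) and Hars1 had 0.09 ± 0.0824 (adjusted p = 0.334), so their log2 ratio moved by -0.60 and was lower in every CYT library than in every untreated one. In GRCr8 both genes are neighbours and are read in opposite directions.

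**Figure D4:**
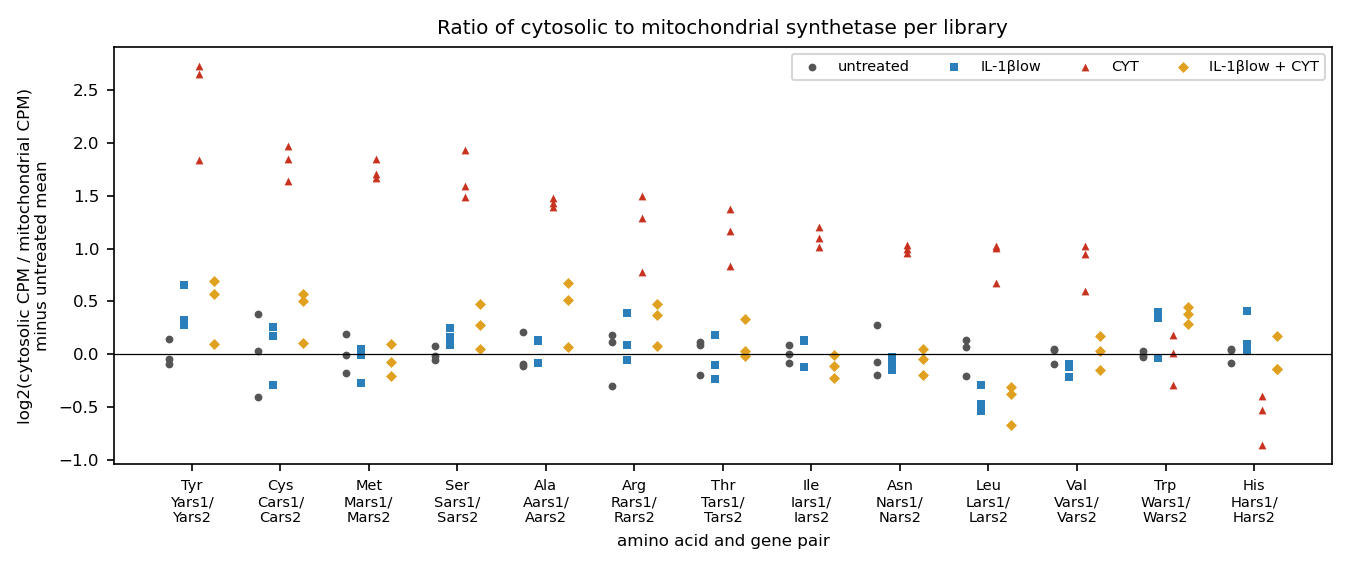
Log2 ratio of cytosolic to mitochondrial CPM per library, minus its mean in untreated cells, for 13 amino acids with a gene in each class, ordered by the change with CYT. The CYT libraries (triangles) lie above the untreated ones in 11 pairs, from tyrosine (2.41) downward, and below them for histidine (-0.60).

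IL-1βlow alone left every synthetase gene within a narrow band. By the study's thresholds for this comparison (0.6 in place of 1 on the log2 scale) 0 of 37 genes passed, where 0.433% of all genes did, and at an adjusted p under 0.05 again 0 passed, where 1.35% of all genes did. Among the genes named here, cytosolic ones ranged from -0.22 (Lars1) to 0.32 (Wars1, adjusted p = 0.142) and mitochondrial ones from -0.27 (Yars2) to 0.26 (Vars2, adjusted p = 0.291). Wars1 and Vars2 were the 2 genes with an unadjusted p under 0.05 in edgeR, where 13.8% of all genes had one. DESeq2's Wald test gave 4 such genes (13.7% of all genes) and edgeR's exactTest 2 (13.9%), with 0 passing after adjustment in either. A fit with a replicate block gave 8 such genes (23.3% of all genes), and Wars1 (0.31) then passed after adjustment (adjusted p = 0.0409 in edgeR). That block pairs the untreated libraries by number too, which the check of pairing described under the processing did not bear out.

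When IL-1βlow preceded the challenge, cytosolic synthetase genes were lower than with CYT alone. The comparison of IL-1βlow + CYT with CYT uses the same CYT libraries as the comparison above, so a CYT library that reads high makes the rise in the first and the fall in the second larger. By the thresholds 9 of the 20 cytosolic genes were lower and 0 higher, where 5.92% of all genes were lower and 6.54% higher. With glmTreat 4 cytosolic genes were called. At an adjusted p under 0.05, which 25.5% of all genes passed as lower and 25.3% as higher, 17 cytosolic genes fell and 0 rose. The class median was -0.91 against 0.02 over all genes, and -0.86 without Mars1. The libraries of both groups did not overlap for 18 cytosolic genes, all lower, and 13 mitochondrial genes, 9 of them lower, where 27.6% of all genes lay apart as lower and 26.8% as higher.

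Of the members described above by library, Sars1 fell by a log2 of 2.04 ± 0.104 (adjusted p = 1.03e-08) and Cars1 by 1.81 ± 0.136 (adjusted p = 1.81e-07). The other called genes were Mars1 (-1.45), Iars1 (-1.35), Tars1 (-1.31), Yars1 (-1.28), Aars1 (-1.23), Vars1 (-1.05) and Eprs1 (-1.01). The calls of Vars1 and Eprs1 lay close to the threshold and each was lost without 1 library, and that of Eprs1 also without TMM scaling of the libraries (-0.9992). Vars1 was at -0.95 without CYT replicate 2 and -0.98 without IL-1βlow + CYT replicate 3, and Eprs1 at -0.99 without CYT replicate 3 and -0.93 without IL-1βlow + CYT replicate 1. Nars1, at -0.96, passed without CYT replicate 1 (-1.002) or without IL-1βlow + CYT replicate 3 (-1.04). Lars1 and Kars1 (both -0.86), Gars1 (-0.63), Rars1 (-0.61), Farsb (-0.57), Wars1 (-0.44) and Qars1 (-0.30) fell by less than the threshold. Hars1 at -0.16 and Farsa at 0.16 did not pass at an adjusted p under 0.05. Qars1 missed that limit without CYT replicate 2 (-0.25) or IL-1βlow + CYT replicate 3 (-0.21). With the replicate number as a block, Hars1 passed as lower (-0.16, adjusted p = 0.0431 in edgeR).

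In the mitochondrial class 1 of 17 genes was called lower, a share near the 5.92% of all genes. This was Fars2, at -1.01 ± 0.126 (adjusted p = 1.64e-05), and that call was lost with glmTreat, without TMM (-0.99), without CYT replicate 2 (-0.87) or without IL-1βlow + CYT replicate 1 (-0.98). At an adjusted p under 0.05 another 5 genes fell, Wars2 (-0.86), Hars2 (-0.73), Ears2 (-0.67), Sars2 (-0.65) and Tars2 (-0.29), and 3 rose, Yars2 (0.64), Lars2 (0.48, leucyl) and Mars2 (0.35, methionyl), where 25.5% of all genes fell and 25.3% rose. The class median was -0.21. Of these, Tars2 missed that limit without CYT replicate 2 (-0.26) or IL-1βlow + CYT replicate 3 (-0.22). Yars2 missed it without CYT replicate 2 (0.54), CYT replicate 3 (0.46) or IL-1βlow + CYT replicate 3 (0.49), and Mars2 without CYT replicate 1 or 2 (both 0.32) or IL-1βlow + CYT replicate 1 (0.31). Cars2, at -0.39 (adjusted p = 0.0562 in edgeR), passed that limit with the replicate block (0.0249), in DESeq2 (0.0435) and in exactTest (0.0495).

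Against untreated cells, the shares of synthetases that passed in the pretreated and challenged cells were near or below those of all genes in edgeR. By the thresholds 0 of 37 genes passed in edgeR, in DESeq2 and in exactTest, where 5.99% of all genes passed in edgeR, and 12 of the 37 had an unadjusted p under 0.05, as did 34% of all genes. At an adjusted p under 0.05, which 12.2% of all genes passed as higher and 9.59% as lower, Kars1 (0.59), Wars1 (0.41), Sars1 (0.38) and Yars1 (0.27) were higher and Gars1 (-0.37) was lower, and 0 of the 17 mitochondrial genes passed. In the cytosolic class alone 4 of 20 genes were thus higher, a share above that of all genes, and 1 was lower. DESeq2 and exactTest each gave 7 genes at that limit, the same 5 with Aars1 and Vars1. A replicate block gave 9, adding Aars1 (0.29), Cars1 (0.34) and Vars1 (0.27) as higher and Eprs1 (-0.23) as lower. Their adjusted p in that edgeR fit ran from 1.74e-03 (Cars1) to 0.0219 (Eprs1). The block also pairs the untreated libraries by number, which the check of pairing described under the processing did not bear out. In edgeR Sars1 missed that limit without IL-1βlow + CYT replicate 2 (0.30), untreated replicate 1 (0.34) or untreated replicate 2 (0.34). Yars1 missed it without any 1 of the 3 untreated libraries (0.22, 0.26 and 0.28), IL-1βlow replicate 1 or 2 (both 0.25) or IL-1βlow + CYT replicate 2 (0.19). Against IL-1βlow cells 0 genes passed the thresholds, where 3.88% of all genes did, and at an adjusted p under 0.05, which 7.96% of all genes passed as higher and 4.99% as lower, Kars1 was higher (0.40 ± 0.0889) and Gars1 lower (-0.51 ± 0.0713, adjusted p = 1.44e-04). In edgeR 5 of the 37 had an unadjusted p under 0.05 there, where 23.6% of all genes did. With the replicate number as a block, Aars1 was also higher (0.24, adjusted p = 0.0153 in edgeR).

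The interaction term tests directly whether the response to CYT differed between pretreated and naive cells. It was below 0 past the thresholds for 9 cytosolic genes, Sars1 (-2.20), Cars1 (-1.98), Mars1 (-1.51), Yars1 (-1.42), Tars1 (-1.35), Aars1 (-1.28), Iars1 (-1.27), Vars1 (-1.16) and Kars1 (-1.05), and for Fars2 (-1.26), where 5.2% of all genes were called in that direction and 5.48% in the other. The Kars1 call was lost without CYT replicate 2 (-0.99), and glmTreat called 3 cytosolic genes and 0 mitochondrial ones. At an adjusted p under 0.05, which 19.1% of all genes passed below 0 and 18.1% above it, the counts were 15 cytosolic genes below 0 and none above, and 7 mitochondrial genes below 0 and 1 above, Yars2 at 0.91 (adjusted p = 0.0214). Without CYT replicate 1, Yars2 (1.18) and Wars2 (-1.04) also passed the thresholds, and Wars2 did so too without CYT replicate 2 (-1.01) or IL-1βlow replicate 2 (-1.05). Yars2 missed an adjusted p of 0.05 without untreated replicate 1 (0.86), IL-1βlow replicate 2 (0.81), CYT replicate 2 (0.81) or CYT replicate 3 (0.74), and Sars2 without CYT replicate 2 (-0.51). Tars2 (-0.38) missed it without untreated replicate 3 (-0.35), IL-1βlow replicate 1 (-0.38), CYT replicate 2 (-0.35) or IL-1βlow + CYT replicate 3 (-0.31), and Ears2 (-0.60) in 9 of the 12 fits that leave out 1 library (-0.65 to -0.54).

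Genes that work with the synthetases were taken from lists of their pathway. The 3 scaffold proteins of the multisynthetase complex, Aimp1, Aimp2 and Eef1e1, all rose with CYT at an adjusted p under 0.05, by log2 fold changes of 0.85 ± 0.102, 0.41 ± 0.133 and 0.37 ± 0.0877. Aimp1 was at 24.2, 24.3 and 25.1 CPM untreated and 37.9, 47.6 and 46.9 CPM with CYT. Of the 8 synthetases of the complex 3 were called higher (Mars1, Kars1 and Iars1), where 10% of all genes were, and 6 rose at an adjusted p under 0.05, where 30.6% of all genes did. Both structural families of synthetases, class I and class II, which differ in the fold of the catalytic domain, had 5 of 18 genes called higher with CYT, again beside 10% of all genes.

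Of 17 genes that handle tRNA before or after charging, Xpot, which exports tRNA from the nucleus, was the 1 gene called with CYT (log2 1.44 ± 0.126, adjusted p = 2.36e-07), a share of the list below the 10% of all genes called higher. It was at 84.6, 90.1 and 86.7 CPM untreated, 221, 220 and 268 CPM with CYT, and 77.8, 78.8 and 107 CPM with IL-1βlow + CYT. Counting Xpot, 9 of the 17 rose at an adjusted p under 0.05 and 5 fell, where 30.6% of all genes rose and 31.7% fell. Those that fell were Ptrhd1 and Ptrh2 (both -0.94), Trnt1 (-0.92), which adds the CCA end to tRNA, Tars3 (-0.79), a further cytosolic threonyl-tRNA synthetase gene, and Gatc (-0.79). Tars3 was at 17.3, 14.6 and 16.4 CPM untreated and 9.78, 7.99 and 10.1 CPM with CYT, opposite in direction to Tars1. The other subunits of the amidotransferase that makes mitochondrial glutaminyl-tRNA, Gatb (0.25) and Qrsl1 (0.62), rose where Gatc fell.

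Factors of the later steps were read against the same shares of all genes (30.6% higher and 31.7% lower). Of 7 cytosolic elongation factor genes 4 rose with CYT at an adjusted p under 0.05, with Eef1g (0.76) and Eef2 (0.73) the largest, and Eef1b2 at -0.20 (adjusted p = 0.05) the lowest. Of 9 mitochondrial translation factor genes 2 rose, Mrrf (0.95) and Tufm (0.34), and 2 fell, Gfm1 (-0.49) and Gfm2 (-1.08 ± 0.112), and Gfm2 alone passed the thresholds, so neither direction was more frequent in this list than among all genes.

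Atf4 and its amino acid response genes were set beside the synthetases. Atf4 was at 156, 176 and 174 CPM untreated, 159, 180 and 164 CPM with IL-1βlow, 668, 721 and 708 CPM with CYT, and 169, 204 and 199 CPM with IL-1βlow + CYT, so the CYT libraries again stood alone at the top. Of 28 kept genes on a list of 32, 24 were called higher with CYT, where 10% of all genes were, and all 28 rose at an adjusted p under 0.05, where 30.6% of all genes did, with a median of 1.92 on the log2 scale, from Slc38a2 (0.35) to Trib3 (6.08), with Atf4 at 2.05 and Asns, asparagine synthetase, at 1.63. Against CYT alone, 27 of the 28 were called lower with IL-1βlow + CYT, where 5.92% of all genes were, at a median of -1.79. The interferon-γ list was lower against CYT alone too, with 8 of its 14 genes called, 12 of 14 falling at an adjusted p under 0.05 (25.5% of all genes) and a median of -1.06. It was at a median of 2.34 with IL-1βlow + CYT against untreated cells, with 10 of 14 genes called higher, where 3.85% of all genes were, while the median of the ATF4 list was 0.12 and that of the cytosolic synthetases 0.06. In that comparison 3 of the 28 genes of the ATF4 list were called higher, with 1.96 the highest log2 fold change. At an adjusted p under 0.05, 7 of the 28 were higher and 1 lower, where 12.2% of all genes were higher and 9.59% lower. These lists were chosen knowing earlier results of these data, so these values are a description.

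Because the called genes and the ATF4 list moved in the same direction, the promoters were searched for the letters of the C/EBP-ATF response element, the composite site known to be bound by ATF4 with a C/EBP partner. The windows were 250 bases before to 50 bases after the annotated start in GRCr8, from RefSeq, and 33 of the 37 synthetases had one (Gars1 and Rars1 were among those with no entry). TGATGNAA, searched on both strands (TTNCATCA on the other), was found in 7 of 17 cytosolic windows and 0 of 16 mitochondrial ones, where 3.98% of all 33469 windows held it. Each of the 7 also held the stricter form TGATGCAA, present in 0.795% of all windows. The genes were Aars1, Cars1, Iars1, Mars1, Nars1, Tars1 and Yars1. The stretches around the match are shown for 5 of the genes called with CYT, read 5′ to 3′ on the gene's own strand, with the matching letters in capitals, so that the shared core and the unlike flanks can be seen.
Cars1, chr1:208225334-208225363, minus strand: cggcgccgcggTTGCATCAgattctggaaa
Iars1, chr17:15193658-15193687, minus strand: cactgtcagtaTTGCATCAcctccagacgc
Mars1, chr7:65023752-65023781, minus strand: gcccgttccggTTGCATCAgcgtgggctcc
Tars1, chr2:62114811-62114840, minus strand: ctggcgtcccgTTGCATCAgctggttagct
Yars1, chr5:146820190-146820212, plus strand: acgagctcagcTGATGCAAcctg

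Counted from the annotated start as +1, the match began at -27 in Tars1, -24 in Iars1, -17 in Mars1, 18 in Cars1 and 39 in Yars1, so that in Cars1 and Yars1 it lay downstream of the start.

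The change with CYT had a median of 1.53 on the log2 scale in the 7 cytosolic genes with a match, from 0.88 (Nars1) to 2.16 (Cars1), and 6 of the 7 were called, beside 10% of all genes called higher. The 10 cytosolic genes with a window and no match had a median of 0.74, from -0.19 (Farsa) to 2.43 (Sars1), and 3 were called, Sars1, Kars1 and Vars1. The 16 mitochondrial genes had a median of 0.27, and Fars2 was the 1 gene called, without a match, a share below that of all genes. A match to these letters does not show that a factor was bound, and the absence of one says that the letters are not in this window. The interferon-γ activated site, TTCNNNGAA, which reads the same on both strands, was found in 8.87% of all windows, in 3 cytosolic ones (Aars1, Lars1 and Qars1) and in 2 mitochondrial ones (Nars2 and Wars2). The Wars1 window held none.

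**Figure D5:**
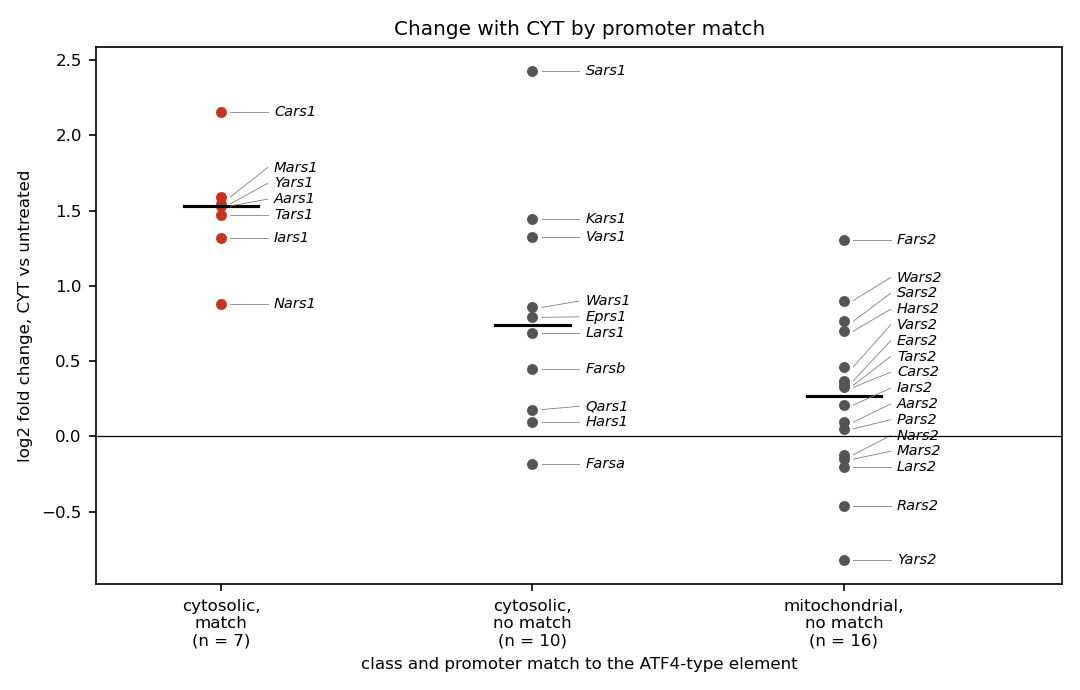
Log2 fold change of each synthetase with CYT against untreated cells (y axis, edgeR), grouped by class and by a match to the C/EBP-ATF response element letters in the window around its start, with the group median as a horizontal bar. The 7 cytosolic genes with a match lie between 0.88 and 2.16, and Sars1 (2.43), Kars1 and Vars1 stand above 1 among those without one.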

How the data were processed

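RNA-seq was performed in INS-1E cells, with 3 libraries in each of 4 groups. The authors made TruSeq libraries from total RNA, used FastQC for quality control and rfastp for trimming, and obtained counts with featureCounts after Rsubread alignment to the mRatBN7.2 genome. The deposited values are raw counts per gene symbol, not normalized by the authors. The strand setting is not given in the sources used here. The columns were matched to groups by library name, and 0 columns were left unused. Replicates are labelled as biological, and the day and passage of each replicate are not given in the sources used here. Deviations from the group means correlated above 0.1 in all 9 same-numbered pairs among the IL-1βlow, CYT and IL-1βlow + CYT groups (0.116 to 0.520), where each library also correlated best with its own number, so the numbers were taken to pair these groups, on this check alone. The main fit held no term for this pairing, and a fit with the replicate number as a block is given as an alternative.

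Counts were analysed in R 4.3.3 with edgeR 4.0.16. The filter required CPM above 1 in 2 or more libraries, TMM factors (0.968 to 1.04) were computed and all 12 libraries entered a quasi-likelihood fit with 8 residual degrees of freedom, where the study ran exactTest on pairs of groups. The groups were tested as contrasts, with the interaction between IL-1βlow and CYT. Adjusted p-values follow Benjamini-Hochberg over 14324 genes, and each standard error is the log2 fold change divided by the root of its F statistic. Thresholds were those of the study, an adjusted p below 0.01 with a change of more than 0.6 (IL-1βlow against untreated) or 1 on the log2 scale. CPM values are scaled by TMM. The code was tested on simulated data. Without molecular identifiers, reads may repeat a molecule, and depth speaks for counting error only. Of the synthetases, 1 cytosolic and 1 mitochondrial gene are counted in the totals but not reported here one by one, all others are named, and values per library are given for the 10 called with CYT and for Wars1, Gars1, Kars1, Mars1, Hars1 and Hars2. Wars2, Yars2 and Rars2 were added after their values were seen. From the pathway lists, genes are named at the ends of a list or for their known role (Atf4, Ddit3, Trib3, Asns, Aimp1, Aimp2, Eef1e1, Tars3 and Irf1), and the others (such as Trnt1, Gatb, Gatc, Qrsl1, Eef2, Tufm and Gfm1) after their values were seen. The genes, lists and promoter motifs were chosen with earlier results of these data known. Alternatives were RLE size factors, no TMM, DESeq2 1.42.0, exactTest, other count filters, fits to the compared groups alone, a replicate block, other call rules, glmTreat and leaving out each library.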

Additional observations from a re-analysis of the deposited data

Results flagged for a closer look

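The response to CYT differed between IL-1βlow-pretreated and naive cells, by the interaction term of the edgeR fit and the study's thresholds, for 10 synthetase genes, and this test of the difference itself is what brought them here. The interaction log2 fold change was -2.20 for Sars1, -1.98 for Cars1, -1.51 for Mars1, -1.42 for Yars1, -1.35 for Tars1, -1.28 for Aars1, -1.27 for Iars1, -1.26 for Fars2, -1.16 for Vars1 and -1.05 for Kars1, with adjusted p from 4.13e-07 (Sars1) to 1.35e-04 (Fars2). All 10 were lower in the 3 libraries of IL-1βlow + CYT than in the 3 of CYT. Among all genes tested, 10.7% were called in this comparison. No group held the 4 libraries needed to look for a library that stands apart.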

How the results depend on the processing

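Apart from glmTreat, for which only counts of calls are given, calls of single genes kept their direction and their side of the thresholds in most settings, with 1935 values on the same side, 8 that gained a call and 9 that lost one. At an adjusted p under 0.05 with no minimum fold change, the counts were 16 cytosolic and 8 mitochondrial genes for CYT against untreated, 17 and 9 for IL-1βlow + CYT against CYT, 5 cytosolic genes for IL-1βlow + CYT against untreated, 2 against IL-1βlow, and 15 and 8 for the interaction. With glmTreat 0 mitochondrial genes were called in any of these, and 4 cytosolic genes for IL-1βlow + CYT against CYT and 3 for the interaction. Without TMM, 8 cytosolic and 0 mitochondrial genes were called for IL-1βlow + CYT against CYT, with Eprs1 and Fars2 (-0.99) lost. The cytosolic median with CYT was 0.90 with RLE factors and with DESeq2, 0.94 without the filter and 0.91 in a fit to those groups alone, and for IL-1βlow + CYT against CYT -0.94 without the filter.

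With each library left out in turn, mitochondrial calls ranged from 1 to 3 for CYT (3 without CYT replicate 1), from 0 to 1 for IL-1βlow + CYT against CYT and from 1 to 3 for the interaction. The cytosolic medians ranged from 0.85 to 0.95 with CYT, from -0.99 to -0.87 for IL-1βlow + CYT against CYT and from -0.96 to -0.83 for the interaction, and the mitochondrial median for IL-1βlow + CYT against CYT from -0.29 to -0.16. Pars2, near 0 with CYT, changed sign, with a range of -0.0318 to 0.19. The cause of these moves was not tested.

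Same-numbered libraries of the 3 treated groups deviated together. Of the 9 pairs with an untreated library 4 had a correlation above 0.1 (-0.188 to 0.181), so the numbers were not taken to pair those. The replicate block was still fitted to all libraries. Its results against untreated cells and for the interaction therefore rest on that pairing as well. With a replicate block the cytosolic calls were 9 for CYT, for IL-1βlow + CYT against CYT and for the interaction, and the mitochondrial calls 1 each, with 0 elsewhere. At an adjusted p under 0.05 the block kept all calls and added genes in each comparison, from 24 to 27 synthetases for CYT, 26 to 28 for IL-1βlow + CYT against CYT, 5 to 9 against untreated, 2 to 3 against IL-1βlow, 23 to 26 for the interaction and 0 to 1 for IL-1βlow. At that limit DESeq2 lost Ears2 for the interaction (-0.64, adjusted p = 0.0699) and gained Rars1 (-0.55, adjusted p = 0.0388), which the block also gained (-0.50, adjusted p = 5.62e-03). Over all genes the block moved the count for IL-1βlow against untreated from 62 to 141 (139 in DESeq2, 137 in exactTest). Scaling moved the median of all genes by less than 0.1.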
